A study of Mus musculus with 20 samples.

Results

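Keratins are the intermediate filament proteins of epithelial cells, and desmoplakin is the protein that ties keratin filaments to desmosomes, the spot-like junctions between neighbouring cells. The genes described here are 9 keratin genes and the desmoplakin gene, 10 of the 51826 genes counted, taken by symbol from a list: the simple keratins Krt7, Krt8, Krt18 and Krt19, the stratified keratins Krt4, Krt5, Krt13, Krt14 and Krt15, and Dsp. They were measured by sequencing of total RNA in 20 mouse tumour tissues, 14 lung metastases and the 6 primary sarcomas with which the labels match them. Each primary tumour forms a set with the metastases matched to it: there were 4 metastases in set 1 and 4 in set 2, 2 in set 3 and 2 in set 6, and a single one in set 4 and in set 5. Metastasis 2-3 is number 3 of set 2, and metastasis 5-x is the unnumbered one of set 5. Every tissue has the genotype label "Mixed background" and no label names an agent; driver alleles, tumour site, age and collection time are not stated in the labels. Animals are not identified, and the p-values below therefore reflect the spread among these 20 libraries, part of which may be technical. The questions asked of these genes were how their levels differed between metastases and primary tumours, how simple and stratified keratins compared in each library, and how they ran beside Nkx2-1.

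A keratin filament is built from pairs, each with an acidic type I and a basic type II protein. Krt8 (type II) and Krt18 (type I) form the pair of simple, single-layered epithelia such as alveoli, glands and gut, and Krt7 (type II) and Krt19 (type I) are added in ducts, airways and mesothelium, the flat lining of the lung surface and body cavities. Krt5 (type II), with Krt14 and Krt15 (type I), belongs to the basal layer of stratified epithelia, and Krt4 (type II) with Krt13 (type I) to the upper layers of moist stratified epithelia such as oesophagus and tongue. Sarcomas are mesenchymal tumours, whose usual intermediate filament is vimentin. Nkx2-1 encodes a transcription factor of lung epithelium and thyroid.

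In mm10 (GRCm38) coordinates the type II genes lie on chromosome 15: Krt7 at chr15:101411043-101430313 on the plus strand, Krt5 at chr15:101707070-101712898, Krt4 at chr15:101918535-101924735 and Krt8 at chr15:101996698-102004482, all 3 on the minus strand. Krt18 lies beside Krt8, at chr15:102028180-102032027 on the plus strand, although it is a type I gene. The other type I genes lie together on chromosome 11, all on the minus strand, at chr11:100117327-100121566 for Krt13, chr11:100131758-100135928 for Krt15, chr11:100140810-100148665 for Krt19 and chr11:100203162-100207548 for Krt14. Dsp lies at chr13:38151294-38198577 on the plus strand. Exons of Krt7, Krt8, Krt5 and Dsp overlap those of a gene on the other strand by 77, 101, 129 and 499 bases in that order, and the strand setting of the counting is not given, so reads there could belong to either gene. A pseudogene, Krt8-ps, resembles Krt8 and reached at most 5.09 CPM (read counts scaled to the library total), in metastasis 2-2.

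The promoter windows of the members that were higher in metastases and that have an entry in RefSeq (GRCm38.p6) are shown to let the sequence at their starts be compared. Each window runs from 250 bases before to 50 bases after a transcript start, on the strand of the gene: chr15:101412153-101412452 (plus) for Krt7, chr15:102004293-102004592 (minus) for Krt8, chr15:102027966-102028265 (plus) for Krt18 and chr13:38151044-38151343 (plus) for Dsp. Krt4, Krt15 and Krt19 are named only. Capitals mark matches to any of 6 motifs searched on both strands.
Krt7: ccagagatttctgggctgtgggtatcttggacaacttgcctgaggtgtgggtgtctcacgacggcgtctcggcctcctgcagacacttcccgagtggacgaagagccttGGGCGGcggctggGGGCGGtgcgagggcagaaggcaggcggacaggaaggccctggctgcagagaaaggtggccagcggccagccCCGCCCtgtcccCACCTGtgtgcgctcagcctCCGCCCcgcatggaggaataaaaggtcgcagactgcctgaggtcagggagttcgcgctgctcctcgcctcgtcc
Krt8: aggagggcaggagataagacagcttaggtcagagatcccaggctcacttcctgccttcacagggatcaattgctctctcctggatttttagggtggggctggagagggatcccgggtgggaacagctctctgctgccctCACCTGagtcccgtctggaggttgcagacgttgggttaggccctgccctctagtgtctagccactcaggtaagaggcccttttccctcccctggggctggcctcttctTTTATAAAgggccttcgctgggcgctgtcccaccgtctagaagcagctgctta
Krt18: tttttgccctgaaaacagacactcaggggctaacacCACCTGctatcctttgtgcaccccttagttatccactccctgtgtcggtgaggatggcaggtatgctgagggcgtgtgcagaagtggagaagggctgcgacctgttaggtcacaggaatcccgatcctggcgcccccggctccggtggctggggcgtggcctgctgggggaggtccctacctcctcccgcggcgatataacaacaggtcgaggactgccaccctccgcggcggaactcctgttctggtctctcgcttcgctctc
Dsp: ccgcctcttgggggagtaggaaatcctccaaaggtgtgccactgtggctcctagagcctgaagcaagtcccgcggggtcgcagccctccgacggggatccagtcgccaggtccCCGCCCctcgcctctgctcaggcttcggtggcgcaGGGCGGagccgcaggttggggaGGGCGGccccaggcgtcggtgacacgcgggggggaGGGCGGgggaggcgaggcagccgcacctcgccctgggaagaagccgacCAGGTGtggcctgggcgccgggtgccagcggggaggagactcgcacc
The motifs were the TATA box (TATAAA), present in 13.6% of all 32851 RefSeq windows, the GC box (GGGCGG), in 35.7%, the AP-1 site (TGANTCA), in 7.81%, the E-box read by Zeb and Snail repressors of epithelial genes (CAGGTG), in 20.2%, the core read by NKX2 factors (CTCAAG), in 15.9%, and a grainyhead half-site (AACCGG), in 6.83%. The Krt7 and Dsp windows each held 4 GC boxes, and the Krt8 and Krt18 windows none. The Krt7, Krt8, Krt18 and Dsp windows each held 1 match to CAGGTG or its reverse complement CACCTG. The Krt8 window also held TTTATAAA, which is a TATA box on both strands with overlapping letters. It lies across the transcript start, with matches beginning at offsets -3 and -1 from it. Among the stratified keratins, the Krt5 window held 1 CAGGTG, and the windows at the 2 RefSeq starts of Krt13 held 3 AP-1 sites and 1 AACCGG. The Krt14 window, chr11:100205981-100206280, held no match. That window, the Krt7 window and the Krt13 window with the AACCGG (chr11:100120528-100120827) lie inside the gene spans given above. The sequence at the outer starts of the Krt7 and Krt14 spans was not searched. CTCAAG was found in no window of a member. A match describes the letters only.

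Lung metastases were compared with primary tumours in all 20 libraries, with the set as a block, by edgeR's quasi-likelihood test on the deposited counts, and adjusted p is by Benjamini-Hochberg over the 18452 genes tested, with a threshold of 0.05. Of the 10 members, 6 had enough counts to be tested, and 5 of them rose in metastases: Krt7, Krt8, Krt18, Krt19 and Dsp, the 4 simple keratins and desmoplakin. None fell. The background was 7.34% of all tested genes higher in metastases and 6.44% lower. Krt13 was tested and did not pass, while Krt4, Krt5, Krt14 and Krt15 were too low in most libraries to be tested. Each of the 5 members that rose was higher in 6 of 6 sets and in 14 of 14 metastases than in the primary tumour of the same set, which was so for 3.74% of tested genes. In bulk tissue, fewer cells of a type and less RNA per cell cannot be told apart, here and in all that follows.

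**Figure D1:**
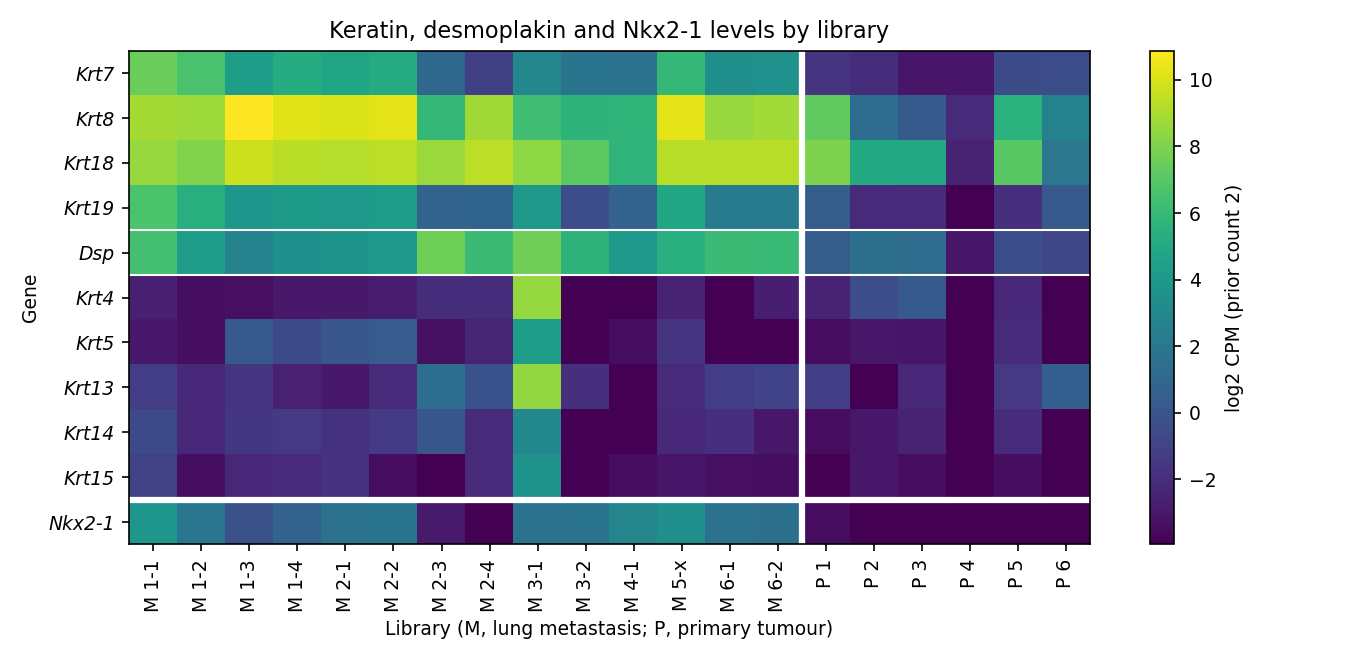
Level of each member and of Nkx2-1 (rows) in each library (columns; M, lung metastasis, on the left; P, primary tumour, on the right), as log2 CPM with a prior count of 2. Krt8 and Krt18 are at or above 50.4 and 51.8 CPM in all 14 metastases, and the rows of the stratified keratins are dark except in metastasis 3-1.

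Krt8 and Krt18, the core pair of simple epithelia, were the most abundant members. Krt8 had 50.4 CPM in the lowest metastasis (3-2), a median of 444 CPM and 1879 CPM in the highest (1-3), against 0.161 CPM in the lowest primary tumour (4), a median of 4.20 CPM and 151 CPM in the highest (1). The groups overlapped, since primary tumour 1 lay above 4 of the metastases, and 10 of 14 metastases lay above every primary tumour. Krt8 averaged 639 ± 571 CPM in metastases (SD, n = 14) and 34.3 ± 59.5 CPM in primary tumours (SD, n = 6), a log2 fold change of 5.20 ± 0.888 (SE; adjusted p = 0.00244 by edgeR). It passed the threshold under all 15 other settings tried. Its level was above 1000 CPM in metastases 1-3, 1-4, 2-1, 2-2 and 5-x, and below 100 CPM in 2-3, 3-1, 3-2 and 4-1.

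Krt18, the partner of Krt8, had 51.8 CPM in the lowest metastasis (4-1), a median of 605 CPM and 872 CPM in the highest (1-3), against 0.107 CPM in the lowest primary tumour (4), a median of 33.5 CPM and 262 CPM in the highest (1). Primary tumours 1 and 5, with 262 and 133 CPM, reached into the range of the metastases. The log2 fold change was 3.24 ± 0.774 (SE; adjusted p = 0.0126 by edgeR), the smallest of the 5. This call was lost in 4 of 15 other settings, over which the edgeR and DESeq2 adjusted p ran from 6.02e-06 to 0.133: with each set's metastases summed (3.98, adjusted p = 0.133), with metastasis 1 of each set alone (4.04, adjusted p = 0.122), without set 2 (3.02, adjusted p = 0.0817) and with a lung epithelium index as a covariate (3.18, adjusted p = 0.0908).

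The size of the Krt18 difference varied between sets. In log2 units, the mean of a set's metastases minus its primary tumour was 0.91 in set 1, 4.06 in set 2, 2.73 in set 3, 8.24 in set 4, 2.23 in set 5 and 7.38 in set 6. The differences were large in sets 4 and 6, whose primary tumours had 0.107 and 3.67 CPM. The difference was small in set 1, whose primary tumour had 262 CPM. Primary tumour 4 had 2 counts of Krt18, so the value of set 4 depends on the prior count. The variation passed the threshold (edgeR, group by set terms, adjusted p = 0.0170), where 4.1% of tested genes were called. Krt18 was 1 of 6 tested members called in that comparison; Krt8 (adjusted p = 0.290), Krt7, Krt19, Krt13 and Dsp were not. Each set has a single primary tumour, which gives no spread of its own.

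**Figure D2:**
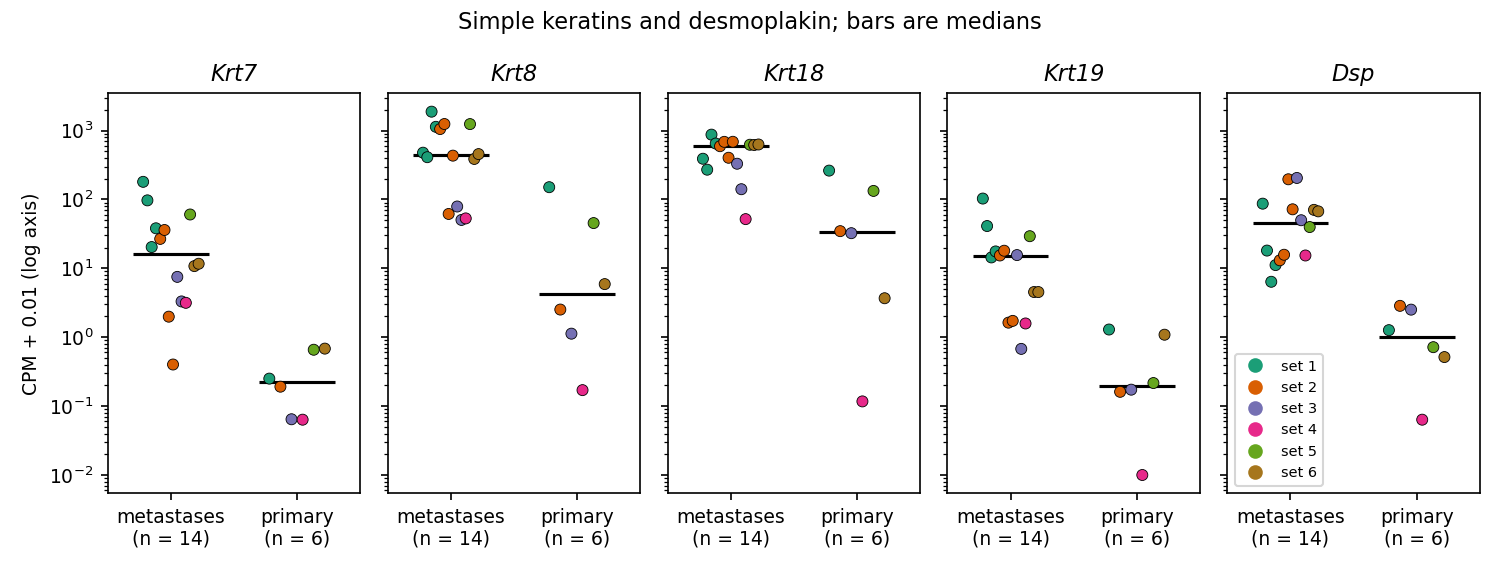
CPM (log axis, 0.01 added) of the 4 simple keratins and Dsp in 14 metastases (left of each panel) and 6 primary tumours (right), with points coloured by set and bars at the medians. Dsp is the member whose groups do not overlap, with a lowest metastasis of 6.37 CPM and a highest primary tumour of 2.84 CPM.

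Divided by transcript length, Krt8 and Krt18 were at like levels in many metastases and uneven in others. The ratio of Krt8 to Krt18 in CPM per kb was between 0.112 (metastasis 2-3) and 1.58 (metastasis 1-3) with a median of 0.825 in metastases, and between 0.0253 (primary tumour 3) and 1.18 (primary tumour 6) with a median of 0.336 in primary tumours. The ratio was lowest in metastases 2-3, 3-1 and 3-2, with 0.112, 0.176 and 0.263, and in primary tumours 2 and 3, with 0.0532 and 0.0253, where the level of Krt18 was thus several times that of Krt8. Together the pair made up 82.5% to 99.8% of the summed simple keratin level per kb in metastases and 86.8% to 99.8% in primary tumours.

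Krt7 and Krt19, the keratins of ducts, airways and mesothelium, were lower in level than the core pair, and both rose. Krt7 had 0.392 CPM in the lowest metastasis (2-4), a median of 16.0 CPM and 180.0 CPM in the highest (1-1), against 0.0535 CPM in the lowest primary tumour (4), a median of 0.211 CPM and 0.673 CPM in the highest (6). All metastases except 2-4 lay above every primary tumour. The log2 fold change was 6.18 ± 1.05 (SE; adjusted p = 0.00243 by edgeR). Its level varied widely within sets: in set 1 it was 180.0, 96.9, 20.3 and 38.1 CPM in 1-1 to 1-4, and in set 2 it was 26.7, 36.0, 1.98 and 0.392 CPM in 2-1 to 2-4.

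Krt19 had 0.667 CPM in the lowest metastasis (3-2), a median of 14.9 CPM and 103 CPM in the highest (1-1), against 0 CPM in the lowest primary tumour (4), a median of 0.185 CPM and 1.28 CPM in the highest (1). The 13 metastases other than 3-2 lay above every primary tumour. Its log2 fold change was 5.00 ± 1.02 (SE; adjusted p = 0.00576 by edgeR). In CPM per kb, Krt19 was at 0.5257 to 11.4 times the level of Krt7 in metastases, with a median of 1.30.

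With the lung epithelium index (the mean log2 CPM of 17 lung epithelium genes, none of them a member) as a covariate, 2 of the 6 tested members were called in place of 5, where 4.02% of genes were called higher in place of 7.34%. Krt8 (log2 fold change 4.09) and Dsp (5.23) passed the threshold in that fit. Krt7 (2.06, adjusted p = 0.135) and Krt19 (1.71, adjusted p = 0.201) did not, where their adjusted p over all settings ran from 1.47e-14 to 0.135 and from 5.52e-10 to 0.201. Whether a member's change differed between the fits with and without the index was not tested.

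**Figure D3:**
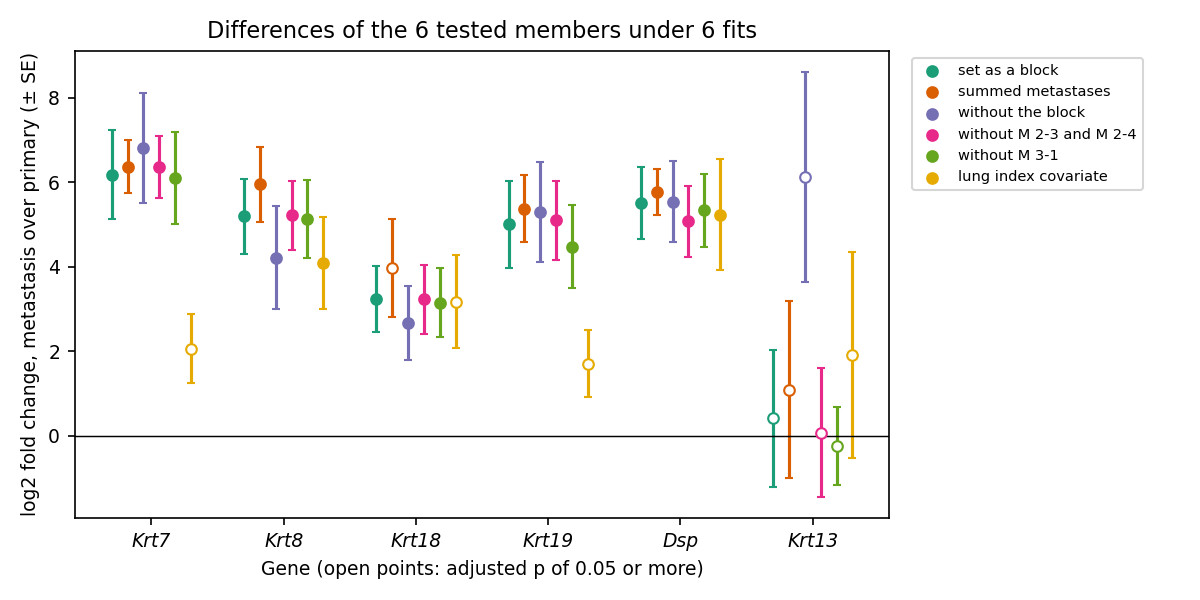
Log2 fold change, metastasis over primary tumour, with its standard error, of the 6 tested members under 6 fits (colours); filled points passed the threshold. Krt8 and Dsp are filled in every fit, Krt7 and Krt19 stand lower and open with the lung index as a covariate, and Krt13 is open in every fit.

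In set 1, the levels of the core pair ran against those of Krt7 and Krt19. Metastases 1-3 and 1-4 had 1879 and 1132 CPM of Krt8, and 1-1 and 1-2 had 477 and 410 CPM. Krt18 followed Krt8, with 872 and 648 CPM in 1-3 and 1-4 and 389 and 270 CPM in 1-1 and 1-2. Krt19 followed Krt7, with 14.4 and 17.6 CPM in 1-3 and 1-4 and 103 and 41.1 CPM in 1-1 and 1-2. In set 2, metastases 2-1 and 2-2 had 1051 and 1243 CPM of Krt8, against 61.5 CPM in 2-3 and 432 CPM in 2-4, while Krt18 was more even, at 592, 685, 403 and 687 CPM in 2-1 to 2-4. Set 6 was the most uniform in these genes, with 387 and 455 CPM of Krt8 and 617 and 627 CPM of Krt18 in 6-1 and 6-2. Over the 14 metastases the core pair did not run against Krt7 and Krt19. Pearson r of log2 CPM was 0.574 for Krt7 with Krt8 and 0.241 for Krt7 with Krt18. It was 0.632 for Krt8 with Krt19 and 0.397 for Krt18 with Krt19. These values were not tested.

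The differences by set of the other members that rose spanned narrower ranges than those of Krt18. In log2 units, metastases minus primary tumour, Krt8 differed by 2.42 in set 1 and by 4.77 to 7.88 in the other 5 sets. Krt7 differed by 3.93 (set 6) to 7.64 (set 1), and Krt19 by 2.00 (set 6) to 6.76 (set 5). Dsp differed by 3.797 (set 1) to 7.03 (set 4). The upper ends for Krt8 and Dsp came from set 4, whose primary tumour had 3 counts of Krt8 and 1 of Dsp. That these spreads are unlike that of Krt18 was not tested.

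Desmoplakin was the member that separated the groups without overlap, as did 0.981% of tested genes. Dsp had 6.37 CPM in the lowest metastasis (1-3), a median of 44.8 CPM and 205 CPM in the highest (3-1), against 0.0535 CPM in the lowest primary tumour (4), a median of 0.982 CPM and 2.84 CPM in the highest (2). Its log2 fold change was 5.52 ± 0.852 (SE; adjusted p = 0.00146 by edgeR), and it passed the threshold under all 15 other settings. In set 2 the order of the metastases was unlike that of Krt7. Dsp had 196 and 71.9 CPM in metastases 2-3 and 2-4 there, against 13.1 and 15.7 CPM in 2-1 and 2-2. In set 1 the order was that of Krt7: Dsp had 86.8 CPM in 1-1, against 18.1, 6.37 and 11.1 CPM in 1-2, 1-3 and 1-4.

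Of 21 other genes of desmosomes and of the plakin family, 14 were tested, 6 rose and 1 fell, with a median log2 fold change of 1.97, where the median of all tested genes was -0.00032. Ppl, which encodes the plakin periplakin, rose by 2.96 ± 0.571 on the log2 scale (SE; adjusted p = 0.00455 by edgeR). The desmosomal cadherin gene Dsc3 had 1.04 to 20.4 CPM in metastases and 0 to 1.63 CPM in primary tumours and rose by 3.37 ± 0.771 (adjusted p = 0.0102). Dst, which encodes the plakin dystonin, was at 593 to 1115 CPM in metastases and 824 to 1614 CPM in primary tumours and fell by 0.75 on the log2 scale (SE 0.164; adjusted p = 0.00819). Also past the threshold were the desmosomal cadherin gene Dsg2 (3.93), the desmosome-associated gene Perp (3.56), the plakin gene Evpl (2.96) and the plakophilin gene Pkp3 (2.49). The plaque partner of desmoplakin, plakoglobin (Jup), had 3.77 to 182 CPM in metastases and 1.98 to 76.8 CPM in primary tumours, and a difference of 0.46 on the log2 scale (adjusted p = 0.555), and the plakophilin gene Pkp1 differed by 3.56 (adjusted p = 0.109). Dsg2, Perp, Evpl, Pkp3, Jup and Pkp1 were named after their values were seen.

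Stratified keratins were near 0 in 19 of the 20 libraries and high in metastasis 3-1. Krt4, of upper layers, had 375 CPM in metastasis 3-1 and at most 1.12 CPM elsewhere, in primary tumour 3. Krt13, its partner, had 348 CPM in metastasis 3-1 and at most 2.55 CPM elsewhere, in metastasis 2-3. These correspond to 7543 and 7009 counts, which were 98.7% and 96.7% of all counts of Krt4 and Krt13 in the series. The basal-layer genes were lower in the same library: Krt5 had 19.8 CPM in metastasis 3-1 and at most 1.16 CPM elsewhere, Krt15 had 12.6 CPM and at most 0.419 CPM, and Krt14 had 7.75 CPM and at most 0.934 CPM. Metastasis 3-2, the other metastasis of the set, had 0.196 CPM of Krt13 and no counts of Krt4, Krt5, Krt14 and Krt15.

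Krt13 was the stratified keratin that could be tested, and it did not pass. It had 0 to 348 CPM in metastases, with a median of 0.219 CPM, and 0 to 1.31 CPM in primary tumours, with a median of 0.215 CPM. Its log2 fold change was 0.42 ± 1.62 (SE; adjusted p = 0.898 by edgeR), and it was higher in 2 of 6 sets. The value was -0.24 without metastasis 3-1 and 6.13 without the set as a block (adjusted p = 0.105, in a range from 0.105 to 0.981 over its settings). With no filter on low counts all 10 members could be tested, and the same count of 5 rose, where 2.84% of genes were called higher. Log2 fold changes in that fit were 3.51 for Krt5, 2.91 for Krt14, 3.24 for Krt15 and -0.36 for Krt4. Their edgeR adjusted p ran from 0.160 to 0.913. Krt15 was higher in 6 of 6 sets, Krt5 in 5, Krt14 in 4 and Krt4 in 2. These values rest on few counts: the primary tumours together had 4 of Krt15. DESeq2 called 6 of 10, with Krt14 as the addition, where it called 11.7% of the genes given an adjusted p as higher.

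Some other genes of stratified epithelium stood high in metastasis 3-1 as well. Those named here were chosen after their values were seen. Krt78, a keratin of moist stratified epithelia, had 15.2 CPM there and at most 0.165 CPM elsewhere. Krtdap, a gene of differentiating keratinocytes, had 20.9 CPM and at most 0.163 CPM. The desmosomal cadherin genes Dsg3 and Dsc1 had 14.8 and 6.86 CPM, and at most 0.395 and 0.363 CPM elsewhere. Lor, which encodes the cornified envelope protein loricrin, had 10.1 CPM and at most 0.295 CPM elsewhere. The keratins of the upper epidermis did not stand out: Krt1 had 0.0994 CPM and Krt10 2.78 CPM in metastasis 3-1, within the range of the other libraries. The summed level of 11 epidermis genes was 62.5 CPM in metastasis 3-1, 2.45 to 35.8 CPM in the other metastases and 3.10 to 7.55 CPM in primary tumours. The 35.8 CPM, in metastasis 6-2, was mostly Lgals7, at 33.0 CPM, and 5 of the 11 genes were at 0 there. Of the 3 epidermis genes that could be tested, Sbsn (log2 fold change 1.01), Lgals7 (1.30) and Krt10 (-0.07), 0 passed the threshold. What part stratified epithelium had in the counts of metastasis 3-1 was not tested.

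Ordered by median CPM per kb in metastases, the members ran from Krt18 (421) and Krt8 (227) through Krt19 (9.43), Dsp (4.67) and Krt7 (3.91) to Krt13 (0.132), Krt14 (0.124), Krt5 (0.0421), Krt4 (0.0349) and Krt15 (0.0257). In primary tumours the order of median CPM per kb was Krt18 (23.3), Krt8 (2.15), Krt13 (0.130), Krt19 (0.117), Dsp (0.102), Krt4 (0.0596), Krt7 (0.0515), Krt14 (0.0257), Krt5 (0.0185) and Krt15 (0.00800). Neighbours in either order had overlapping ranges over libraries. The range of Krt8 in metastases (25.7 to 959 CPM per kb) overlapped that of Krt18 (36.0 to 606) and, at its lower end, that of Krt19 (0.423 to 65.3).

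Simple keratins exceeded stratified keratins in every library except metastasis 3-1 when the CPM per kb of each kind were summed. The 4 simple keratins summed to 64.9 CPM per kb in the lowest metastasis (4-1), a median of 654 and 1580 in the highest (1-3), against 0.170 CPM per kb in the lowest primary tumour (4), a median of 24.4 and 260.1 in the highest (1). The 5 stratified keratins summed to 0.0310 CPM per kb in metastasis 4-1, a median of 0.704 and 407 in metastasis 3-1, against 0 in primary tumour 4, a median of 0.430 and 0.794 in primary tumour 6. Stratified keratins thus made up 59.1% of the 9-keratin sum in metastasis 3-1, at most 0.696% in the other metastases (2-3) and up to 11.02% in primary tumours (6).

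**Figure D4:**
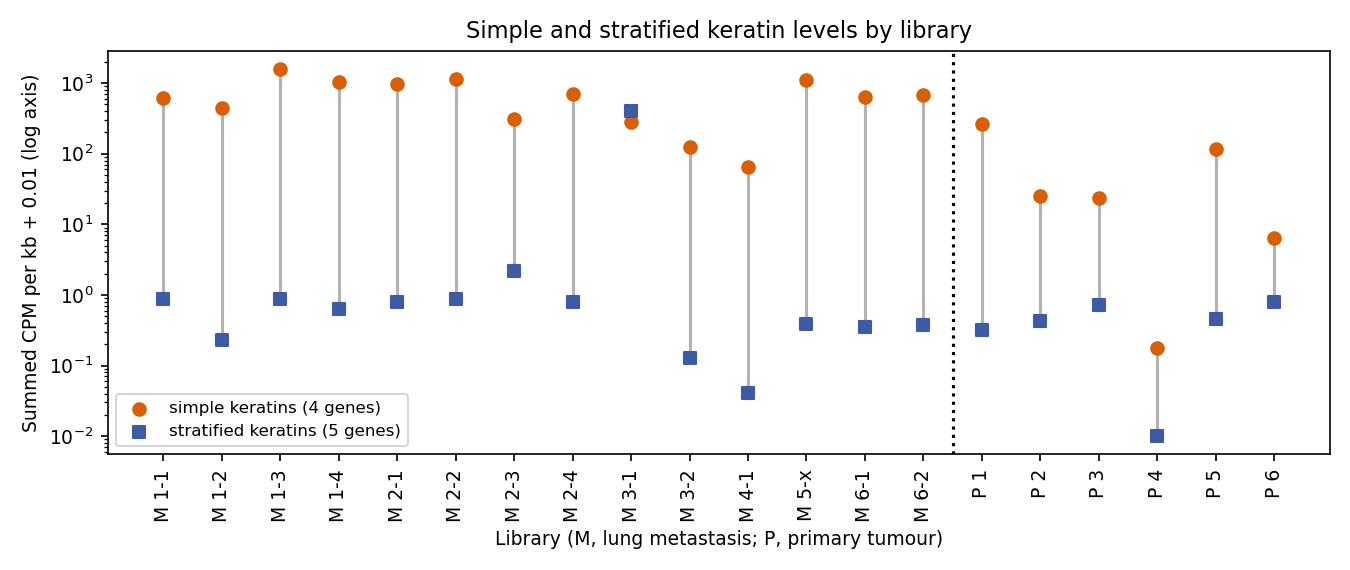
Summed CPM per kb (log axis, 0.01 added) of the 4 simple keratins (circles) and the 5 stratified keratins (squares) in each library, metastases (M) left of the dotted line and primary tumours (P) right of it. The squares sit below the circles except in metastasis 3-1, with 407 against 281 CPM per kb.

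For a log2 ratio of simple to stratified keratins, a constant of 0.01 CPM per kb was added to each sum. The ratio was higher in the metastases than in the primary tumour in 5 of 6 sets. The difference was 0.78 in set 1, 3.46 in set 2, -0.32 in set 3, 6.46 in set 4, 3.48 in set 5 and 7.82 in set 6, with a mean of 3.61 ± 3.14 (SD, n = 6). Set 3 was the exception. Without metastasis 3-1 its difference was 4.91 and the mean 4.48 ± 2.49. Primary tumour 4 had 0 CPM per kb of stratified keratins, so the value of set 4 depends on the constant. With a constant of 0.1 it was 7.52. With Krt8 and Krt18 set against Krt5 and Krt14 alone, the difference was -1.57 in set 1 and 1.09 in set 3. No test was made of this score, since its members were chosen with results known. The other 45 keratin genes in the table added little: 9 reached 1 CPM in any library, 4 could be tested and 0 passed the threshold (edgeR), with 1 at an unadjusted p under 0.05, Krt23 (log2 fold change 2.82, adjusted p = 0.0900).

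Among 16 other intermediate filament genes, 12 were tested, 0 rose and 1 fell, with a median log2 fold change of -0.11. The gene that fell was Synm, which encodes synemin, a filament protein of muscle: it had 3.92 to 17.1 CPM in metastases and 2.30 to 115 CPM in primary tumours, its fold change on the log2 scale was -2.64 ± 0.538 (SE; adjusted p = 0.00576 by edgeR), and it was higher in metastases in 2 of 6 sets. Lmnb1, of the nuclear lamina, stood at -0.54 on that scale (adjusted p = 0.0799), and the progenitor filament gene Nes 0.93 (adjusted p = 0.222). Vim, the filament of mesenchymal cells and named after its values were seen, was at 1760 to 5471 CPM in metastases and 2419 to 7242 CPM in primary tumours, and its log2 fold change was -0.36 (adjusted p = 0.326). The mesenchymal filament was thus abundant in all 20 libraries, whatever their keratin level.

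Nkx2-1 (chr12:56531958-56536908, minus strand) had 1799 counts in metastases and 1 count in primary tumours, a ratio of CPM of 789 with an exact 95% interval of 141 to 31194 that covers counting error only. It had 0 CPM in the lowest metastasis (2-4), a median of 3.07 CPM and 14.2 CPM in the highest (1-1), against 0 CPM in 5 primary tumours and 0.0267 CPM in primary tumour 1. Across the 14 metastases, the log2 CPM of Nkx2-1 was correlated with that of each of the 10 members, with two-sided permutation p-values (100000 resamples) adjusted over the 10. Metastases of the same set share a primary tumour and are not fully independent.

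Krt7 was the member whose Pearson correlation with Nkx2-1 passed the threshold (r = 0.708, permutation p = 0.00423, adjusted p = 0.0423), while its Spearman correlation did not (rho = 0.543, permutation p = 0.0480, adjusted p = 0.240). The relation rested on the 2 metastases lowest in Nkx2-1: without 2-4 and 2-3, r was 0.27 (permutation p = 0.400). Within sets 1 and 2, Krt7 and Nkx2-1 ranked the 4 metastases in the same order, whereas in sets 3 and 6 the metastasis with more Krt7 had less Nkx2-1. With values centred on the mean of their set (12 metastases of sets 1, 2, 3 and 6) r was 0.969 (permutation p = 0.00265, adjusted p = 0.0265). The centred rho was 0.937 (permutation test, adjusted p = 0.159). These 12 include 2-3 and 2-4, and no centred value was computed without them. Over the means of the 6 sets, r was 0.321 (exact permutation p = 0.569). Metastasis 4-1 shows the spread between sets: it had 6.97 CPM of Nkx2-1, the third highest value, and 3.15 CPM of Krt7.

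For Krt19, r was 0.499 (permutation p = 0.0703, adjusted p = 0.352) and rho 0.477 (adjusted p = 0.289); centred on set means r was 0.767 (permutation p = 0.0110, adjusted p = 0.0549). For Krt8, r was 0.09 (adjusted p = 0.943) and rho -0.05. For Krt18, r was -0.31 (adjusted p = 0.907) and rho -0.56 (permutation p = 0.0417, adjusted p = 0.240). For Dsp, r was -0.19 (adjusted p = 0.943) and rho 0.00. For the 5 stratified keratins, r lay between -0.22 (Krt13) and 0.10 (Krt15), and none passed the threshold.

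The 8 libraries with 3 or fewer Nkx2-1 counts, 2 metastases and all 6 primary tumours, differed widely in Krt8 and Krt18. Metastasis 2-4 had 0 counts of Nkx2-1 and 432 CPM of Krt8, 687 CPM of Krt18, 71.9 CPM of Dsp, 0.392 CPM of Krt7 and 1.72 CPM of Krt19. Metastasis 2-3 had 2 counts of Nkx2-1 and 61.5 CPM of Krt8, 403 CPM of Krt18, 196 CPM of Dsp, 1.98 CPM of Krt7 and 1.62 CPM of Krt19. In both, Dsp lay above its median in metastases while Krt7 and Krt19 lay below theirs. Primary tumour 1 had 1 count of Nkx2-1 with 151 CPM of Krt8 and 262 CPM of Krt18, and primary tumour 5 had none with 45.4 and 133 CPM. Primary tumours 2, 3, 4 and 6, also with none, had 2.51, 1.12, 0.161 and 5.89 CPM of Krt8. Krt18 was at 34.6 and 32.4 CPM in primary tumours 2 and 3 and at 0.107 and 3.67 CPM in 4 and 6.

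**Figure D5:**
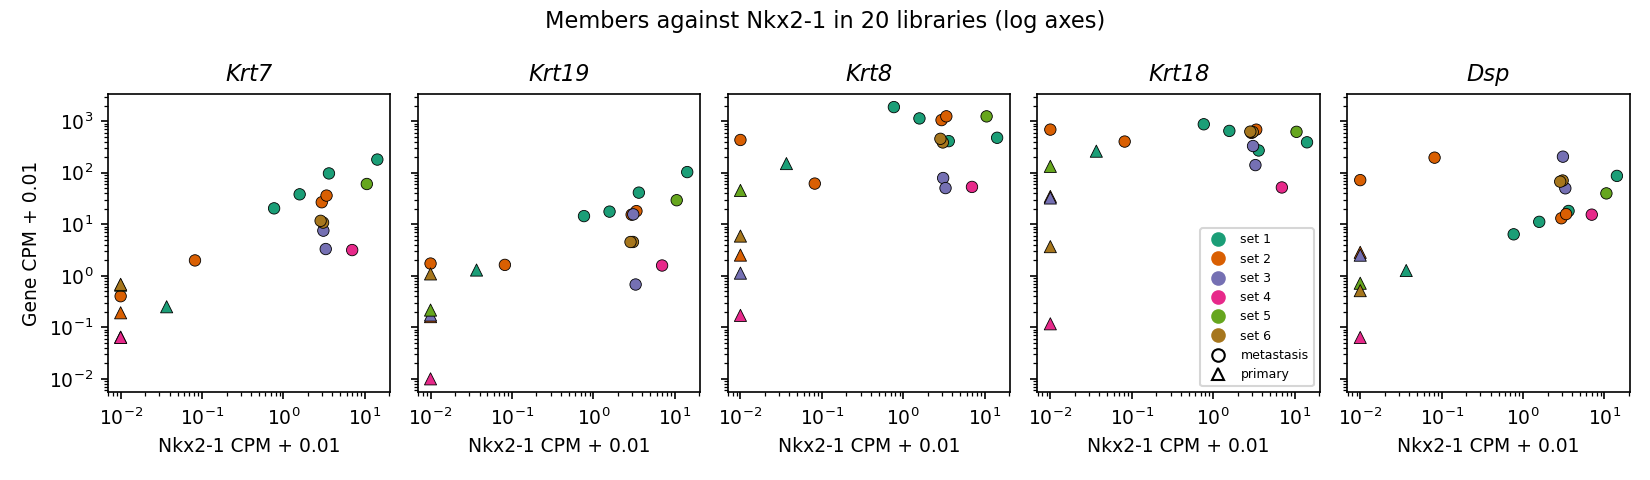
CPM of Krt7, Krt19, Krt8, Krt18 and Dsp (vertical, log axis, 0.01 added) against CPM of Nkx2-1 (horizontal, log axis, 0.01 added) in the 20 libraries; circles are metastases, triangles primary tumours, colours sets. Krt8 and Krt18 reach 432 and 687 CPM in a metastasis with 0 counts of Nkx2-1, where Krt7 is at 0.392 CPM.

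Many genes of other epithelia rose in metastases as well. Of 17 lung epithelium genes 14 rose and 0 fell, with a median log2 fold change of 6.39, among them Nkx2-1 (adjusted p = 0.00186), the pioneer factor gene Foxa2 (6.39, adjusted p = 0.00223) and the club cell secretory gene Scgb1a1 (8.98, adjusted p = 0.00353). Their summed level was 156 to 15307 CPM in metastases and 10.5 to 167 CPM in primary tumours; 2 of the 17, Nkx2-1 and Lamp3, were at 0 in metastasis 2-4, none in the other metastases, and 1 to 8 in each primary tumour. The lung epithelium sum of metastasis 2-4, 156 CPM, lay below that of primary tumour 1, 167 CPM. Krt8 was at 432 CPM in the metastasis and 151 CPM in the primary tumour. Where the sum was low, a single gene could hold much of it. Abca3 was 83.4 of 114 CPM in primary tumour 2, and Aqp5 was 171 of 355 CPM in metastasis 2-3. What share of these sums came from lung tissue was not tested. Metastasis 1-3, with the highest Krt8 and Krt18, had a lung epithelium sum of 539 CPM, below the median of 973 CPM in metastases.

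Of 9 mesothelium genes 8 rose and 0 fell, with a median log2 fold change of 3.76: the uroplakin genes Upk1b (5.87, adjusted p = 0.000761) and Upk3b (5.61, adjusted p = 0.00168) and the membrane protein gene Lrrn4 (4.38, adjusted p = 0.00243) had the smallest p. Their summed level was 64.7 to 1153 CPM in metastases and 1.39 to 270 CPM in primary tumours. Most of this sum was Msln, which encodes mesothelin and was named after its values were seen: it made up 45.7% to 97.2% of the sum in metastases and 70.2% to 98.5% in primary tumours. Msln was highest, at 911 to 1117 CPM, in the 5 metastases with over 1000 CPM of Krt8 (1-3, 1-4, 2-1, 2-2 and 5-x), and among primary tumours in 1 and 5, the 2 with the most Krt8 and Krt18. The other 8 genes did not share that order: 6 of them were highest in metastasis 1-1, which had 477 CPM of Krt8, and they summed to 85.3 CPM there, 15.1 to 41.9 CPM in the other metastases and 0.0535 to 4.57 CPM in primary tumours. None of the 9 was at 0 in any metastasis, and 0 to 7 were at 0 in each primary tumour. The part of lung epithelium and mesothelium in the keratin differences was not tested beyond the fit with the lung index.

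Of 4 basal epithelium genes 2 rose, the water channel gene Aqp3 (3.56, adjusted p = 0.00223) and Sox2 (3.17, adjusted p = 0.0253). On the log2 scale Ngfr stood at 0.23 (adjusted p = 0.888) and Trp63, named after its values were seen, at -0.19 (adjusted p = 0.925). The sum of the 4 was 5.10 to 156 CPM in metastases and 2.78 to 84.1 CPM in primary tumours. The highest sums were mostly Sox2, with 153 CPM in metastasis 3-2 and 83.4 CPM in primary tumour 4. Of 5 skeletal muscle genes 0 rose and 3 fell, Myh4 (-6.30), Ckm (-5.12) and Tnnt3 (-4.56); their sum was 6.15 to 2844 CPM in metastases and 1.65 to 6512 CPM in primary tumours, with 2858 to 6512 CPM in primary tumours 1, 2, 3 and 5 and under 4 CPM in 4 and 6. Of 27 genes of epithelial junctions and identity 25 were tested, 21 rose and 0 fell, with a median log2 fold change of 4.45. The tight junction gene Ocln (5.28, adjusted p = 0.00131), the epithelial transcription factor gene Elf3 (5.90, adjusted p = 0.00139) and the epithelial splicing factor gene Esrp2 (4.90, adjusted p = 0.00146) had the smallest p, by edgeR throughout.

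Differences between sets among the metastases were tested in the 12 metastases of sets 1, 2, 3 and 6. Of 9 members tested, 0 passed the threshold by edgeR, where 0.321% of 19919 genes did; 6 had an unadjusted p under 0.05, and the smallest adjusted p was that of Krt13 (0.0526), whose set 3 values were 348 and 0.196 CPM. The share of all genes called moved widely between settings, and the members' counts are to be read beside it. DESeq2 called 7 of 10 members and 22.7% of the genes given an adjusted p. Without metastases 2-3 and 2-4, edgeR called 4 members, Krt7, Krt8, Krt13 and Krt15, and 19.4% of genes. Without metastasis 3-1 it called 0 members, with 2 at an unadjusted p under 0.05, and 26.6% of genes.

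The genes most like the members in pattern were found by Pearson correlation of log2 CPM over the 20 libraries, which share group, set and depth. The mean of the 4 simple keratins ran closest to Rabl2 (r = 0.955), Ager (0.936), Tbx4 (0.935), Inpp5k (0.928) and Usp43 (0.922), of which Ager encodes a receptor abundant on flat alveolar cells and Tbx4 a transcription factor of lung mesenchyme and hindlimb. The mean of the 5 stratified keratins ran closest to Mt4 (r = 0.798), a metallothionein gene of stratified epithelium, Secisbp2 (0.793), Vaultrc5 (0.789), Fcgbp (0.778) and Ttc41 (0.733). These values describe likeness in these libraries and carry no test.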

How the data were processed

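Per the labels' protocols, Direct-zol RNA went into stranded libraries after depletion with Ribo-Zero Gold. The submitters' processing notes name Trimmomatic 0.36, STAR (listed as 5.5.4b, a doubtful version), HTSeq and the mm10 build; no source used here gives the gene annotation or the strand option of the counting. The authors deposited raw counts, a single table of 51826 genes in 20 libraries of 20603620 to 36824370 counts. Of the identifiers, 51633 matched a symbol in GENCODE M21, 47648 in the same version, and the 193 others held 0.017% of counts. The closest libraries, metastases 2-1 and 2-2, differed over 17667 genes (chi-square per degree of freedom 10.5) and were kept as 2 samples.

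CPM were computed with library totals scaled by TMM factors, and log2 CPM with a prior count of 2. CPM per kb were taken from the spliced length of the principal transcript. The TMM factor was 0.712 in primary tumour 4 and 0.932 to 1.10 in the other libraries. Tests used edgeR 4.0.16 in R 4.3.3 with the set as a block and 13 residual degrees of freedom. The settings were filterByExpr with a minimum count of 10, TMM and a robust quasi-likelihood fit. The fit was also run on simulated counts of independent libraries without differences between sets. That run does not cover metastases of a set that are alike. DESeq2 1.42.0 was an alternative, and permutations used SciPy 1.17.1. The SE of a log2 fold change was taken as its size over the square root of F. Sets were paired as the titles and the design text match them. As a check, deviations of primary tumours and their own metastases from group means had correlations of 0.3095, 0.1358, -0.1817, 0.2431, -0.2214 and 0.1252 in sets 1 to 6 over the 1000 most variable genes.

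The members, lists and tests were chosen with earlier results of these data known. All members and Nkx2-1 are named, with the 3 tested genes of smallest p in each other list and the 5 genes most like each keratin group; others named were chosen after their values were seen. Promoter windows are RefSeq's (GRCm38.p6).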

Additional observations from a re-analysis of the deposited data

Results flagged for a closer look

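Members were looked at in 19 groups of 4 or 6 samples, those in which a library reached 1 CPM. Dixon's test on CPM looked for a library that stood apart from the others, and 3 groups had one. For normally distributed values chance flags about 1 of 20 groups. CPM are skewed towards high values, so that rate need not hold here. The flags describe distance on the CPM scale only. Krt8, the type II keratin of simple epithelia, had 151 CPM in primary tumour 1, where the other 5 primary tumours lay between 0.161 and 45.4 CPM. Krt13, of upper stratified layers, had 1.31 CPM in primary tumour 6, where the others lay between 0 and 0.374 CPM. Dsp had 86.8 CPM in metastasis 1-1, where the other 3 metastases of set 1 lay between 6.37 and 18.1 CPM. Metastasis 3-1 was not part of these checks, since set 3 has 2 metastases and the 14 metastases together are too many for the test.

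The metastasis-minus-primary difference of Krt18 varied between sets (edgeR, group by set terms, adjusted p = 0.0170), and in 6 of 6 sets it pointed upward.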

How the results depend on the processing

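The metastasis-primary comparison was repeated under 15 other settings (14 for Krt13, which failed the filter in 1). Krt8 and Dsp kept their direction and passed the threshold in all 15, with log2 fold changes of 4.09 to 6.48 and 5.08 to 5.91. Krt7 and Krt19 lost the call in 1 (the lung index), and Krt18 in 4. Krt13 was -0.26 without set 2, -0.38 without set 3 and -0.24 without metastasis 3-1, a setting chosen after seeing the data, and ran from -0.38 to 1.51 when each set was left out; the cause was not tested. The lung index left 2 members and 1271 genes called, of 5 and 2543. The number of genes called was 360 with summed metastases and 415 with metastasis 1 of each set, which use fewer samples, 4721 with DESeq2, and 999 to 3052 when each set was left out, with 999, 1089 and 1368 without sets 1, 2 and 6. Without the set as a block, the pairing being given by the labels, 2484 genes and 5 members were called, 1221 genes higher and 1263 lower. Between sets, the calls were 7 members and 4786 genes by DESeq2, 4 and 3780 without metastases 2-3 and 2-4, and 0 and 5602 without metastasis 3-1, against 0 and 64. Correlations with Nkx2-1 passed for 0 members over set means and 0 without the 2 farthest metastases, against 1. Over set means r was -0.0664 for Krt8, -0.23 for Krt5 and -0.11 for Krt15; without the 2 farthest it was -0.27 for Krt8, -0.32 for Krt5, -0.0193 for Krt15 and 0.456 for Dsp; centred on set means it was 0.00365 for Krt14. The mean over sets of the simple over stratified difference ran from 2.69 to 4.48. In the setting with 2.69, Krt8 and Krt18 against Krt5 and Krt14, set 1 turned to -1.57 and set 3 to 1.09. Depth limits the stratified keratins, which had 3 or fewer counts in many libraries.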
